A study of Mus musculus with 16 samples.

Results

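The genes described here are the collagen chain genes of brown adipose tissue and the genes whose products modify, fold, trim and crosslink collagen. They were chosen by symbol: every gene whose mouse symbol is Col followed by a digit, plus 15 named processing genes. Of the 60 symbols of this kind in the annotation, 46 had a value, out of 15350 genes with a value in all. The 46 comprised 8 fibrillar collagen genes, 7 of basement membrane collagens, 4 of type VI, 5 of the collagens that sit on fibril surfaces (FACIT), 7 of network, anchoring, transmembrane and other collagens, and 14 processing genes. The last, Col4a3bp, matched by its letters and encodes a ceramide transfer protein, not a collagen. The other 14 symbols, among them Col2a1, Col11a1, Col8a2 and P4ha3, were not analysed here.

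Interscapular brown fat from mice of the C57BL/6J strain had been sequenced as stranded mRNA libraries with 75-base single reads, in 4 groups of 4 libraries. These were Ucp1-knockout (KO) mice with isoproterenol, an agonist of beta-adrenergic receptors given by implanted minipump at 60 mg per kg per day for 3 days; wild-type (WT) mice with the same infusion; KO mice with saline; and WT mice with saline. The protocol text in the labels describes the isoproterenol infusion for the saline samples too, so the saline groups rest on the treatment label and the titles, and how saline was given is not stated. The study asked how the tissue is activated by isoproterenol with and without Ucp1, the gene of the uncoupling protein that makes heat in brown fat. The labels give neither the age and sex of the mice, nor the part of Ucp1 that was deleted, nor whether each library is a different animal. The p-values thus set differences against the spread between libraries, which may be technical.

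KO isoproterenol libraries held 12914590 to 20986735 recovered reads and WT isoproterenol libraries 11093784 to 16720338. KO saline libraries held 9004515 to 14381797 and WT saline libraries 10479767 to 12241512. Levels are given as CPM, counts per 1000000 reads of the scaled library, taken back from the deposited log2 values. Ucp1 itself had 19 to 2129 CPM in KO isoproterenol and 8905 to 18458 CPM in WT isoproterenol tissue, against 409.8 to 1156 CPM in KO saline and 2298 to 3449 CPM in WT saline tissue. Reads from outside the deleted part may count towards the KO values, so they check nothing about the genotype. KO isoproterenol libraries were less alike than those of any other group, with correlations of log2 CPM from 0.852 to 0.957, against 0.949 to 0.985 within the other 3 groups. All 8 adipocyte and all 8 brown adipocyte markers had reads in each of the 16 libraries. Their summed levels were low in KO isoproterenol replicate 1, at 4143 CPM for adipocytes and 129.8 CPM for brown adipocytes, against 23037 to 24120.5 and 5143 to 6181 CPM in KO saline. That library stands apart, and results that rest on it are given with and without it. KO isoproterenol replicate 4 differed the other way. Its adipocyte sum of 39397 CPM was the highest of the 16 libraries, and its brown adipocyte sum was 6232 CPM. In bulk tissue, fewer cells of a type and less RNA per cell cannot be told apart.

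Collagens are proteins of the extracellular matrix whose chains wind around each other into a rod-like helix. Fibrillar collagens assemble into cables that bear tension, type IV collagen forms the sheet-like network of basement membranes, and type VI forms fine beaded filaments. In fat each adipocyte is wrapped in a basement membrane rich in types IV and VI collagen, and fibrillar collagens lie between cells, in septa and around vessels. Before a chain can be used it is hydroxylated in the endoplasmic reticulum by prolyl 4-hydroxylases and lysyl hydroxylases, folded with the chaperone HSP47, secreted and trimmed at its ends by procollagen proteinases. Enzymes of the lysyl oxidase family then crosslink it.

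Among the 46 genes, levels per kilobase of transcript were led by the same 4 genes in every group, Col3a1, Col4a1, Col4a2 and Serpinh1. In KO isoproterenol tissue Col4a1 was highest at 307 ± 31.6 CPM per kilobase (SD, n = 4), then Col3a1 at 255 ± 252, Serpinh1 at 192 ± 143 and Col4a2 at 192 ± 31.1. WT isoproterenol tissue had Col4a1 at 297 ± 40.6, Serpinh1 at 254 ± 15.6, Col3a1 at 196 ± 44.9 and Col4a2 at 193 ± 27.9. The KO saline order was Serpinh1 at 154 ± 28.7, Col3a1 at 135 ± 20.8, Col4a1 at 110.0 ± 16.1 and Col4a2 at 86.2 ± 13. In WT saline it was Col3a1 at 182 ± 65, Serpinh1 at 178 ± 18.4, Col4a1 at 142 ± 31.2 and Col4a2 at 107 ± 18.7 CPM per kilobase. In each group the ranges of neighbours in this order overlapped across libraries. Values of different genes in a library are paired, so overlapping ranges alone do not show that neighbours were alike. Col4a1, for one, exceeded Col4a2 in every library, by a ratio of 1.22 to 1.32 in KO saline and 1.21 to 1.37 in WT saline. At the low end, Col17a1, a transmembrane collagen of epithelia, had 0.175 to 1.26 CPM in KO isoproterenol and 0.31 to 0.611 CPM in WT isoproterenol tissue, against 0.541 to 0.976 CPM in KO saline and 0.661 to 1.12 CPM in WT saline tissue. It was the only 1 of the 46 genes with a mean under 1 CPM over all libraries.

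After isoproterenol in KO tissue, 25 of the 46 genes rose and 6 fell (limma, adjusted p under 0.05 over all genes). Of all 15350 genes, 23.8% were called higher and 24.8% lower in that comparison, and the median log2 fold change was 0.85 over the 46 and -0.00 over all genes. By role, 13 of 14 processing genes rose, as did 3 of 8 fibrillar, 3 of 7 basement membrane, 3 of 4 type VI, 2 of 5 FACIT and 1 of 7 other collagen genes. Without KO isoproterenol replicate 1 the counts were 20 higher and 5 lower, against 22.0% and 23.3% of all genes in that fit, with Col27a1 gained among the higher and Col14a1 among the lower. Without replicate 3 they were 20 and 8, against 21.3% and 23.4%. Without replicate 4 no call was lost and the higher count was 28, with Col1a2, Col9a3 and Col15a1 gained. In that fit 26.7% of all genes were called higher and 27.5% lower. When the 8 KO libraries were fitted alone, 16 were called higher, against 16.3% of all genes. Of the 13 processing genes, P4ha1, P4ha2, Plod1 and Plod3 were no longer called without KO isoproterenol replicate 1 or in the KO libraries alone. Loxl2 and Pcolce were also no longer called in the KO libraries alone. In WT tissue 7 genes rose and 4 fell, against 7.60% and 8.98% of all genes, with a median of 0.42 over the 46. Fitted alone, the 8 WT libraries gave 18 higher and 5 lower, against 16.3% and 15.8% of all genes in that fit. Gained there among the higher were Col5a2, Col8a1, Col16a1, Col18a1, Col27a1, Loxl2, Loxl3, P4ha2, Pcolce, Plod2 and Serpinh1. Col4a3 was gained among the lower. The main fit instead holds 1 estimate of the spread per gene over all 16 libraries. Where these genes are given below as not called in WT, the main fit is meant.

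**Figure D1:**
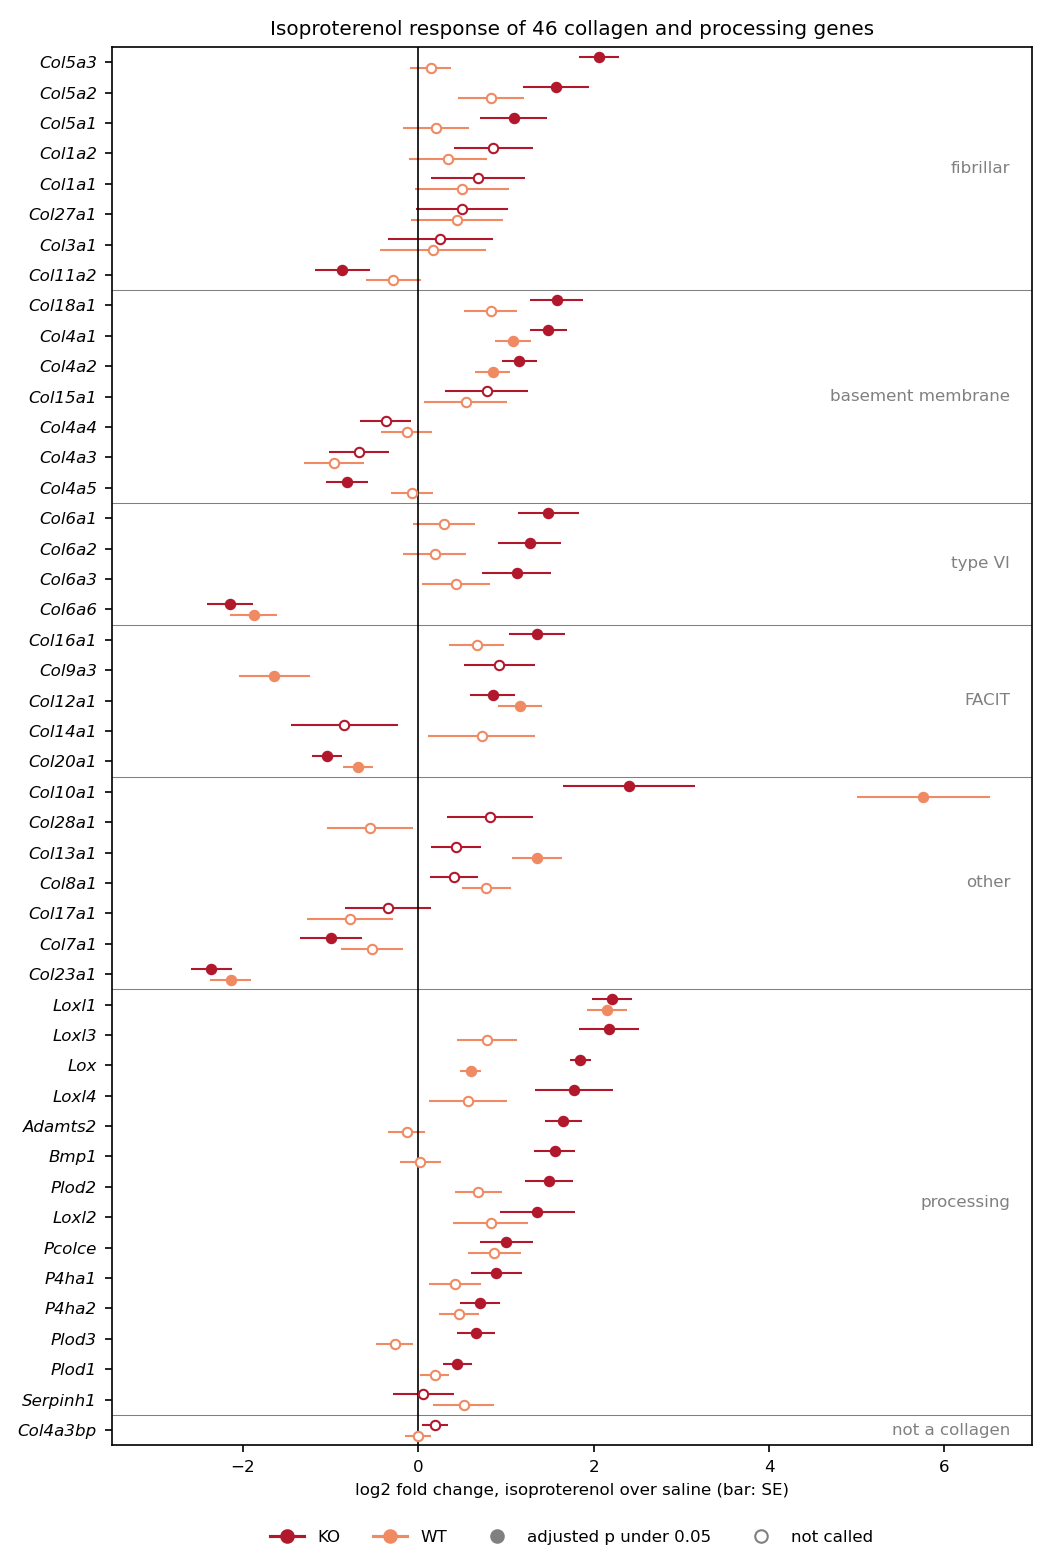
Log2 fold change of isoproterenol over saline for each of the 46 genes, in KO (dark red) and WT (orange) tissue, with bars for the standard error from the limma fit; filled points are called at an adjusted p under 0.05. Most processing genes lie to the right in KO, while Col23a1 and Col6a6 lie at the left in both genotypes and Col10a1 lies farthest right in WT.

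Genes that rose in both genotypes numbered 6: the type IV pair Col4a1 and Col4a2, the crosslinking enzymes Lox and Loxl1, and Col10a1 and Col12a1. They are 6 of the 25 genes that rose in KO and 6 of the 7 that rose in WT. Col6a6, Col20a1 and Col23a1 fell in both, 3 of the 6 that fell in KO and 3 of the 4 that fell in WT. Over all genes, those that rose in both were 15.2% of the genes that rose in KO and 47.4% of those that rose in WT, and those that fell in both were 22.5% and 62.3%. The KO and WT comparisons share no library. In the main fit they do share the estimate of the spread of each gene, so their calls are not independent. Col13a1 was called higher and Col9a3 lower in WT, and neither was called in KO. The responses of Col9a3 differed between genotypes in a test of their own, and the test for Col13a1 did not pass (limma adjusted p = 0.105).

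Col4a1 and Col4a2, whose chains together make the common type IV network of basement membranes, rose in every isoproterenol library of both genotypes. Col4a1 stood at 1772, 2037, 2283 and 2023 CPM in KO isoproterenol replicates 1 to 4, against 879, 675, 722 and 636 CPM in KO saline. The WT values of Col4a1 were 2173, 2208, 1789 and 1678 CPM with isoproterenol, against 1206, 735, 986 and 827 CPM in WT saline. The groups did not overlap in either genotype, and the log2 fold changes were 1.48 in KO (SE 0.21, limma adjusted p = 6.29e-05) and 1.08 in WT (SE 0.21, limma adjusted p = 0.00316). Col4a2 had 973, 1226, 1457 and 1289.9 CPM in KO isoproterenol, against 664, 497, 579 and 483 CPM in KO saline. In WT it had 1384, 1406, 1152 and 1037 CPM with isoproterenol, against 859.8, 593, 699.9 and 616 CPM with saline. Again no isoproterenol library fell into the saline range, with log2 fold changes of 1.15 in KO (limma adjusted p = 0.000303) and 0.85 in WT (limma adjusted p = 0.00974). The KO response minus the WT response was 0.41 for Col4a1 (SE 0.30, limma adjusted p = 0.332) and 0.30 for Col4a2 (SE 0.28, limma adjusted p = 0.46), neither called. Per length, Col4a1 exceeded Col4a2 by a ratio of 1.53 to 1.78 in KO isoproterenol libraries and 1.51 to 1.58 in WT isoproterenol, against 1.22 to 1.32 in KO saline and 1.21 to 1.37 in WT saline.

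These genes lie head to head on chromosome 8, so their start regions are shown together, each from 250 bases before to 50 bases after the start that RefSeq gives on GRCm38.p6, read 5′ to 3′ on the gene's own strand. Capitals mark matches on either strand to 5 motifs: the box spelled CCAAT that the factor NF-Y binds, the GC box, with letters GGGCGG, of the Sp1 family, the cAMP response element, searched for as TGACGTCA only, the AP-1 site, written as TGANTCA with any base at N, and the TATA box, searched for as TATAAA only.
Col4a1, chr8:11312777-11313076, minus strand: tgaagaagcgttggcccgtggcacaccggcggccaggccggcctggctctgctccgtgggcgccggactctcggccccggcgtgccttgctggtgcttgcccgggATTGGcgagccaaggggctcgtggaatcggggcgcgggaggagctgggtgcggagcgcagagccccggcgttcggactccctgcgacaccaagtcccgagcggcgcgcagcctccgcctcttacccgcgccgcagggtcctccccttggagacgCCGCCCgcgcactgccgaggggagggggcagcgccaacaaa
Col4a2, chr8:11312555-11312854, plus strand: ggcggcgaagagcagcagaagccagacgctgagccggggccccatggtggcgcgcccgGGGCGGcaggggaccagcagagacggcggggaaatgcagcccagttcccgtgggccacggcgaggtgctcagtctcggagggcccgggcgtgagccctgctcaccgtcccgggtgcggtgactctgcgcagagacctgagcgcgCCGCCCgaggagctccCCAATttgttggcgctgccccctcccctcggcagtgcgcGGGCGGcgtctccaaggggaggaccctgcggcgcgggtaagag
The starts lie 21 bases apart on opposite strands, and the windows share 78 bases, chr8:11312777-11312854. A single GC box in the shared stretch, chr8:11312812-11312817, is the match in both, at base 10 of the Col4a1 transcript and base 8 of the Col4a2 transcript. Of 32851 windows of this length in the table, 35.7% held a GC box, 37.4% a CCAAT box, 13.6% a TATA box, 7.81% an AP-1 site and 1.79% a cAMP response element. A window was found for 33 of the 46 genes, of which 22 held a GC box, 10 a CCAAT box, 7 a TATA box, 1 (Col6a1) an AP-1 site and 0 a cAMP response element. The motifs do not overlap in the windows printed. A match is a run of letters and not a measured binding site.

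The other basement membrane genes did not move with the type IV pair as a class. Col18a1, whose chain lies at basement membrane zones and releases endostatin, had 199, 85.7, 198 and 91.8 CPM in KO isoproterenol, against 35.8, 41.5, 60.5 and 43.4 CPM in KO saline. WT libraries held 104, 97.7, 67.5 and 61.9 CPM with isoproterenol, against 68.4, 32.3, 42.7 and 45.7 CPM with saline. KO isoproterenol replicates 1 and 3 were well above replicates 2 and 4, and all 4 were above KO saline (log2 fold change 1.58, SE 0.30, limma adjusted p = 0.000683), while the WT groups overlapped (log2 fold change 0.82, limma adjusted p = 0.0776). Col15a1, the related chain of vessel and muscle basement membranes, had 432, 89.7, 294 and 73.8 CPM in KO isoproterenol, against 86, 108, 119 and 88.2 CPM in KO saline. WT tissue held 272, 255, 163 and 139 CPM with isoproterenol, against 225, 85, 140.0 and 131 CPM with saline. Both pairs of groups overlapped, and neither difference was called in the main fit (KO 0.78, limma adjusted p = 0.184; WT 0.54, limma adjusted p = 0.479). The KO difference of Col15a1 was called without KO isoproterenol replicate 4 (log2 fold change 1.18, limma adjusted p = 0.0326). It was also called with libraries weighted by their fit (1.30, limma adjusted p = 0.00479). Without KO isoproterenol replicate 1 it was 0.33 and not called (limma adjusted p = 0.539). Col4a5, a type IV chain of specialised basement membranes, fell in KO to 7.06, 4.11, 7.39 and 11.3 CPM with isoproterenol, against 13, 13, 10.8 and 12.6 CPM with saline (log2 fold change -0.81, limma adjusted p = 0.0107). Replicates 1 to 3 were below the KO saline libraries and replicate 4 was within their range. In WT, Col4a5 had 16, 12.5, 12.9 and 13.6 CPM with isoproterenol and 16.9, 16.8, 13.9 and 11 CPM with saline (log2 fold change -0.07, limma adjusted p = 0.867). Its partner chains Col4a3 and Col4a4 ranged from 0.832 to 6.10 CPM and were not called in any comparison of the main fit.

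**Figure D2:**
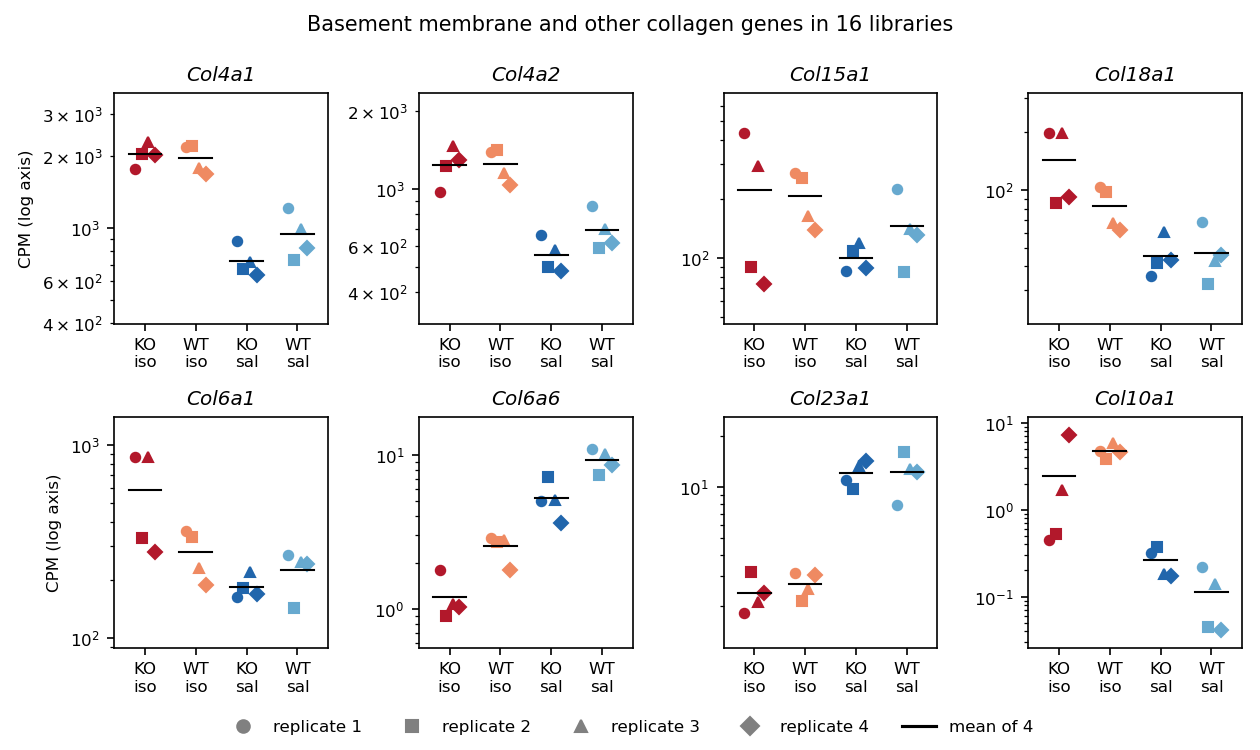
CPM on a log axis in each of the 16 libraries for 4 basement membrane genes (Col4a1, Col4a2, Col15a1, Col18a1), 2 type VI genes (Col6a1, Col6a6), the transmembrane Col23a1 and the network collagen Col10a1; symbols mark the replicate number and the line is the mean of 4. Isoproterenol libraries of both genotypes lie above saline for Col4a1, Col4a2 and Col10a1 and below it for Col6a6 and Col23a1.

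The main fibrillar collagens were not called in either genotype in the main fit, and the KO isoproterenol libraries split widely. Col1a1 and Col1a2 encode the chains of type I collagen, the chief tension-bearing collagen. Col1a1 had 1032, 159, 849.9 and 157 CPM in KO isoproterenol replicates 1 to 4, against 194, 268, 248 and 257 CPM in KO saline. In WT, Col1a1 stood at 591, 526, 409.8 and 348 CPM with isoproterenol, against 464, 162, 363 and 405 CPM with saline. KO isoproterenol replicates 1 and 3 were above all KO saline libraries, and replicates 2 and 4 were below them all. Col1a2 split too, with 1226, 255, 1016 and 267 CPM in KO isoproterenol, against 241, 335, 319.6 and 307 CPM in KO saline, but its replicates 2 and 4 lay within the KO saline range. Its WT values were 616, 585, 456 and 378 CPM with isoproterenol, against 475, 227, 442 and 508 CPM with saline. Col3a1, whose type III collagen shares fibrils with type I in soft tissue, had 3273, 413, 1724 and 265 CPM in KO isoproterenol, against 691, 905, 772 and 639.7 CPM in KO saline. WT libraries had 1275, 1311, 997 and 780.3 CPM of Col3a1 with isoproterenol, against 1311, 492, 1059.8 and 1188 CPM with saline. In KO the log2 fold changes were 0.68 for Col1a1 (SE 0.54, limma adjusted p = 0.312), 0.86 for Col1a2 (SE 0.45, limma adjusted p = 0.127) and 0.25 for Col3a1 (SE 0.60, limma adjusted p = 0.76). Without KO isoproterenol replicate 1 they were 0.21, 0.46 and -0.38, so Col3a1 changed sign. Col1a2 was called higher in KO without KO isoproterenol replicate 2 (1.22, limma adjusted p = 0.0338) or 4 (1.19, limma adjusted p = 0.0294). With libraries weighted by their fit, Col1a1 and Col1a2 were called higher in KO (1.52 each, limma adjusted p = 0.00506 and 0.00133). KO isoproterenol replicate 3 had the largest weight in that fit, 3.37. In WT the log2 fold changes were 0.50, 0.34 and 0.17 (limma adjusted p = 0.576, 0.655 and 0.884), with WT saline replicate 2 low for all 3 genes.

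The type V genes, whose chains join type I fibrils and limit their width, rose in KO. Col5a3 differed from Col1a1 in that its 4 KO isoproterenol libraries were alike, at 336, 404, 467 and 432 CPM, against 96.6, 114, 102 and 79.8 CPM in KO saline. WT isoproterenol libraries had 167, 167, 107 and 92.5 CPM, against 173, 84.2, 125 and 103 CPM in WT saline. Every KO isoproterenol library thus exceeded every other library of the study, and the WT groups overlapped. The log2 fold change of Col5a3 was 2.06 in KO (SE 0.23, limma adjusted p = 7.9e-06) and 0.14 in WT (SE 0.23, limma adjusted p = 0.732), and the difference between the responses was 1.92 (SE 0.33, limma adjusted p = 0.00178). Col5a2 had 340.2, 100.4, 295 and 88.7 CPM in KO isoproterenol, against 57.3, 70.2, 59.2 and 48.3 CPM in KO saline, and all 4 were higher (log2 fold change 1.57, limma adjusted p = 0.00307). Col5a1 had 295, 86, 272 and 92.9 CPM in KO isoproterenol, against 65.1, 82.6, 83.6 and 70.2 CPM in KO saline. Replicates 1 and 3 stood far above the saline range and replicates 2 and 4 just over it (log2 fold change 1.09, limma adjusted p = 0.0279), and the call was lost without replicate 1 (log2 fold change 0.79, limma adjusted p = 0.0872) and without KO isoproterenol replicate 3, KO saline replicate 1 or KO saline replicate 4. In WT, Col5a2 ranged over 101 to 155 CPM with isoproterenol and 46.3 to 95 CPM with saline, and Col5a1 over 73.4 to 147 CPM with isoproterenol and 57.2 to 119 CPM with saline, neither called (log2 fold changes 0.83 and 0.20, limma adjusted p = 0.149 and 0.765).

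Col27a1, a fibrillar chain known from cartilage, ran opposite to Col1a1 across the KO isoproterenol libraries. It had 32.7, 303, 168 and 350.1 CPM in KO isoproterenol, against 119.8, 81.1, 167 and 90.2 CPM in KO saline, and was not called (log2 fold change 0.50, limma adjusted p = 0.457). Without KO isoproterenol replicate 1, its lowest library, it was called higher (log2 fold change 1.25, limma adjusted p = 0.00104). Col11a2, a chain of cartilage fibrils, was lower in KO, at 6.92, 5.04, 8.28 and 10.6 CPM with isoproterenol, against 10.5, 9.45, 17.9 and 18.9 CPM with saline. The ranges overlapped, and this call (log2 fold change -0.87, limma adjusted p = 0.032) was lost without KO isoproterenol replicate 1 or 2, KO saline replicate 3 or 4, and with library totals as the scale.

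**Figure D3:**
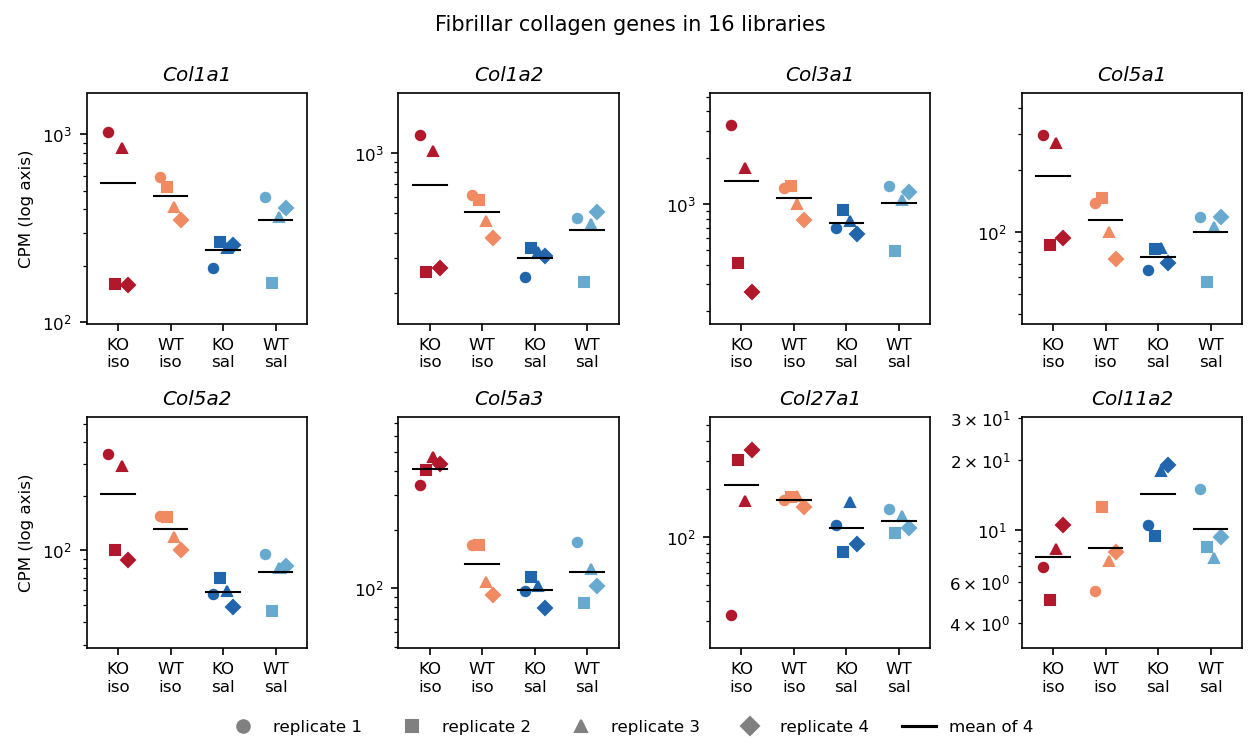
CPM on a log axis in each of the 16 libraries for the 8 fibrillar genes; symbols mark the replicate number and the line is the mean of 4. In KO isoproterenol, replicates 1 and 3 lie above replicates 2 and 4 for Col1a1, Col1a2, Col3a1, Col5a1 and Col5a2, while the 4 lie together for Col5a3 and run the other way for Col27a1.

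The start regions of Col1a2, Col3a1 and Col5a3 are shown for comparison of a gene that rose in all KO isoproterenol libraries (Col5a3) with fibrillar genes that did not. The window, build, orientation and capitals are as for the type IV pair.
Col1a2, chr6:4505368-4505667, plus strand: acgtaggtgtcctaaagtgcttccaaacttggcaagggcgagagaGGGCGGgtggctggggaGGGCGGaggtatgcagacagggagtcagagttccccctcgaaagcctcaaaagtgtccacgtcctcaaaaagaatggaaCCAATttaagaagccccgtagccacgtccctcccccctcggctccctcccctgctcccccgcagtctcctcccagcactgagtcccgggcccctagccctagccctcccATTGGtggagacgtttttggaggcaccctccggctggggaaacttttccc
Col3a1, chr1:45311288-45311587, plus strand: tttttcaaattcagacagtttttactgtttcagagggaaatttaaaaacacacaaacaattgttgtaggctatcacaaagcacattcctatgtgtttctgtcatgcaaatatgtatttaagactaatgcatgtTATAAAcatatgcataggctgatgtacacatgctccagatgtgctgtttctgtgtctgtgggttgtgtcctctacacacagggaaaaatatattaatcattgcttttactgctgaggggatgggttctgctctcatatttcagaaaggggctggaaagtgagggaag
Col5a3, chr9:20815018-20815317, minus strand: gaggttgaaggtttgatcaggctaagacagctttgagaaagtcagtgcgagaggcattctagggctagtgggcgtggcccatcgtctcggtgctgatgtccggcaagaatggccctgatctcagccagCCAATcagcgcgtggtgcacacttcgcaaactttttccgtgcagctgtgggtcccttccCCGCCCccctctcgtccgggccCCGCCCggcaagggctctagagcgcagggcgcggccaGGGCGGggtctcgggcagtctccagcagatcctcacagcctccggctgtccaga
Col1a2 held 2 CCAAT boxes and 2 GC boxes. The only match in Col3a1 was a TATA box that begins 117 bases before the start. Col5a3 held 1 CCAAT box, 122 bases before the start, and 3 GC boxes at 63, 41 and 4 bases before it.

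Type VI collagen genes rose in KO except for Col6a6. Col6a1, which encodes a core chain of the beaded filaments, had 868, 330.0, 866 and 278 CPM in KO isoproterenol, against 164, 183, 221 and 169 CPM in KO saline. Its WT levels were 359.9, 334, 232 and 190.0 CPM with isoproterenol, against 271, 144, 247 and 243 CPM with saline. Replicates 1 and 3 were again the highest in KO isoproterenol, and all 4 were above KO saline (log2 fold change 1.48, SE 0.35, limma adjusted p = 0.00299), while the WT groups overlapped (0.29, limma adjusted p = 0.621). Its partner chains moved alike in KO, Col6a2 by 1.27 (limma adjusted p = 0.00875) and Col6a3 by 1.12 (limma adjusted p = 0.0272) on the log2 scale. The Col6a3 call was lost without KO isoproterenol replicate 1 or 3 and without KO saline replicate 1 or 4. In WT neither was called (Col6a2 0.19, limma adjusted p = 0.771; Col6a3 0.43, limma adjusted p = 0.5). Col6a6, a chain thought to replace the Col6a3 chain in some filaments, fell to 1.78, 0.896, 1.07 and 1.03 CPM in KO isoproterenol, against 5.06, 7.2, 5.12 and 3.62 CPM in KO saline. In WT it fell to 2.87, 2.73, 2.79 and 1.79 CPM with isoproterenol, against 11, 7.45, 10.1 and 8.68 CPM with saline. No groups overlapped, and the log2 fold changes were -2.15 in KO (limma adjusted p = 1.91e-05) and -1.88 in WT (limma adjusted p = 0.000342).

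FACIT collagens attach to the surface of fibrils and do not form fibrils themselves. Col12a1, which coats type I fibrils in tissue under load, had 33.4 to 70.9 CPM in KO isoproterenol, against 21.2 to 38.6 CPM in KO saline. In WT it had 50.8 to 96.5 CPM with isoproterenol, against 30.7 to 43.5 CPM with saline. The WT groups did not overlap (log2 fold change 1.16, limma adjusted p = 0.00631), and the KO groups did in replicate 3 (log2 fold change 0.85, limma adjusted p = 0.012; 0.24 and not called, limma adjusted p = 0.383, when libraries were weighted by their fit). Col16a1 rose in KO (log2 fold change 1.36, limma adjusted p = 0.00274) and was not called in WT (0.66, limma adjusted p = 0.173). Col20a1 fell to 3.5, 3.43, 3.74 and 4.69 CPM in KO isoproterenol, against 7.19, 6.87, 10.9 and 7.06 CPM in KO saline. WT values were 4.84, 4.69, 5.07 and 4.73 CPM with isoproterenol, against 8.42, 7.81, 7.77 and 7.18 CPM with saline, and no isoproterenol library reached the saline range in either genotype (log2 fold change -1.05, limma adjusted p = 0.000197 in KO; -0.69, limma adjusted p = 0.0132 in WT).

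Col14a1, a chain that decorates mature fibrils, was nearly constant in WT isoproterenol at 26.5, 27.3, 27.7 and 27.1 CPM, against 16.8, 7.36, 22.1 and 26.7 CPM in WT saline. KO isoproterenol libraries spread over 43.8, 5.1, 8.8 and 2.78 CPM, against 21.4, 12, 13 and 16.9 CPM in KO saline. Replicate 1 was the highest library of the study and the other 3 were below every KO saline library, and neither response was called (KO -0.84, limma adjusted p = 0.27; WT 0.72, limma adjusted p = 0.462). Without replicate 1 the KO difference was called lower (log2 fold change -1.63, limma adjusted p = 0.00372). Col9a3, a chain of the type IX collagen of cartilage, had 3.07, 1.27, 1.91 and 1.18 CPM in KO isoproterenol, against 0.673, 0.541, 1.2 and 1.55 CPM in KO saline. In WT it fell to 0.423, 0.611, 0.379 and 0.245 CPM with isoproterenol, against 1.28, 1.22, 1.07 and 1.37 CPM with saline. At this level 3 reads were worth 0.143 to 0.345 CPM, so the WT isoproterenol values rest on few reads. The log2 fold change was 0.92 in KO (SE 0.40, limma adjusted p = 0.0703) and -1.64 in WT (SE 0.40, limma adjusted p = 0.0125), and the responses differed by 2.56 (SE 0.57, limma adjusted p = 0.00666).

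Col10a1, the network collagen that marks hypertrophic cartilage, was almost unread in saline tissue. It had 4.75, 3.87, 5.83 and 4.66 CPM in WT isoproterenol replicates 1 to 4, which is 50, 47, 84 and 66 reads, against 2, 0, 1 and 0 reads in WT saline. Summed over libraries, 247 reads stood against 3, a ratio of 72.0 in scaled depth (95% exact conditional interval 24.4 to 352, for counting error only). In KO isoproterenol it had 0.452, 0.525, 1.7 and 7.19 CPM, or 9, 8, 32 and 143 reads, against 4, 4, 2 and 1 reads in KO saline, a ratio of 11.1 (6.08 to 22.7). All isoproterenol libraries lay above the saline libraries of their genotype, and KO isoproterenol replicates 1 and 2 lay far below replicate 4. Fitted log2 fold changes, which at such counts depend on the prior count, were 5.76 for WT (limma adjusted p = 0.0002) and 2.40 for KO tissue (limma adjusted p = 0.0161; 0.0590 with the 8 KO libraries alone). Only 4 of 8 markers of cartilage, bone and tendon had a value, with a summed level of 7.52 to 28.2 CPM in KO isoproterenol and 4.35 to 5.64 CPM in WT isoproterenol tissue, against 3.82 to 5.83 CPM in KO saline and 4.57 to 5.69 CPM in WT saline tissue. In WT that sum stayed within the saline range or just below it, and 0 of the 4 markers were called. In KO, Runx2 and Sox9 of the 4 were called higher (limma). Of all genes, 23.8% were called higher in KO, and 7.60% higher and 8.98% lower in WT. A link between these markers and Col10a1 was not tested.

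Col23a1, a transmembrane collagen, fell in all isoproterenol libraries of both genotypes. It had 1.83, 3.18, 2.12 and 2.38 CPM in KO isoproterenol, against 11.1, 9.78, 13.3 and 14.2 CPM in KO saline. WT tissue held 3.15, 2.16, 2.52 and 3.05 CPM with isoproterenol, against 7.89, 16, 12.7 and 12.2 CPM with saline. The groups were far apart in each genotype, with log2 fold changes of -2.36 in KO (SE 0.24, limma adjusted p = 3.01e-06) and -2.14 in WT (SE 0.24, limma adjusted p = 5.75e-05). Col13a1, the transmembrane collagen of cell contacts and the neuromuscular junction, rose in WT to 17.2, 16.3, 11.6 and 15.5 CPM with isoproterenol, against 5.42, 7.72, 4.23 and 6.6 CPM with saline (log2 fold change 1.35, limma adjusted p = 0.00516). KO libraries overlapped, at 13.6, 9.55, 5.41 and 7.64 CPM with isoproterenol and 9.1, 4.46, 7.15 and 5.57 CPM with saline (log2 fold change 0.43, limma adjusted p = 0.225). Col7a1, the anchoring fibril collagen of skin, was called lower in KO (log2 fold change -0.99, limma adjusted p = 0.0291), a call lost without KO isoproterenol replicate 1 (log2 fold change -0.79, limma adjusted p = 0.082) or KO saline replicate 3 or 4. Col8a1, a network collagen of vessels, Col17a1 and Col28a1, a chain known from peripheral nerve, were not called in either genotype.

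Among the crosslinking enzymes, Lox rose more in KO than in WT and Loxl1 rose in both. Lox, lysyl oxidase itself, had 95.2, 86.3, 95.7 and 84.9 CPM in KO isoproterenol, against 25.5, 19.8, 30.7 and 25.6 CPM in KO saline. WT isoproterenol libraries held 38.9, 49.1, 42.9 and 43.2 CPM, against 27.9, 27.5, 30.6 and 28.8 CPM in WT saline. The 4 KO isoproterenol libraries were close together and above all 12 others, and WT isoproterenol lay above WT saline without overlap. The log2 fold change of Lox was 1.85 in KO (SE 0.12, limma adjusted p = 1.49e-07) and 0.60 in WT (SE 0.12, limma adjusted p = 0.00425), and the KO response exceeded the WT response by 1.25 (SE 0.17, limma adjusted p = 0.000596). Loxl1, the family member known for elastic fibres, had 214, 154, 176 and 119.8 CPM in KO isoproterenol, against 31.3, 32.2, 32.3 and 46.7 CPM in KO saline. Its WT levels were 117, 117, 122 and 112 CPM with isoproterenol, against 31.3, 15, 31.4 and 31.8 CPM with saline. Isoproterenol and saline libraries did not overlap in either genotype (log2 fold change 2.21, limma adjusted p = 4.21e-06 in KO; 2.16, limma adjusted p = 4.54e-05 in WT), and the responses differed by 0.05 (SE 0.32, limma adjusted p = 0.917).

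Loxl3, another oxidase of the family, had 65.4, 23.1, 31.8 and 14.5 CPM in KO isoproterenol, against 6.34, 5.45, 7.66 and 6.26 CPM in KO saline. Its WT values were 14.5, 14.8, 10.9 and 9.98 CPM with isoproterenol, against 8.33, 4.92, 7.77 and 8.43 CPM with saline. All isoproterenol libraries were above saline in each genotype, KO replicate 1 far above the rest, and the KO difference was called (log2 fold change 2.18, limma adjusted p = 0.00014) while the WT difference was not (0.78, limma adjusted p = 0.134). Loxl2, which also acts on basement membrane type IV collagen, had 113, 29.1, 40.8 and 17.8 CPM in KO isoproterenol, against 16, 15.1, 19.6 and 11.5 CPM in KO saline. In WT it had 32.8, 35, 25.9 and 25.9 CPM with isoproterenol, against 19.1, 9.25, 18.4 and 24.2 CPM with saline. Replicate 1 was the highest and replicate 4 fell within the KO saline range. The KO log2 fold change of Loxl2 was 1.36 (limma adjusted p = 0.0155), 0.85 without replicate 1, and the WT one 0.82 (limma adjusted p = 0.207). Loxl4, the least abundant member at 1.43 to 5.92 CPM in KO isoproterenol, against 0.708 to 1.45 CPM in KO saline, also rose in KO (log2 fold change 1.77, limma adjusted p = 0.00421).

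**Figure D4:**
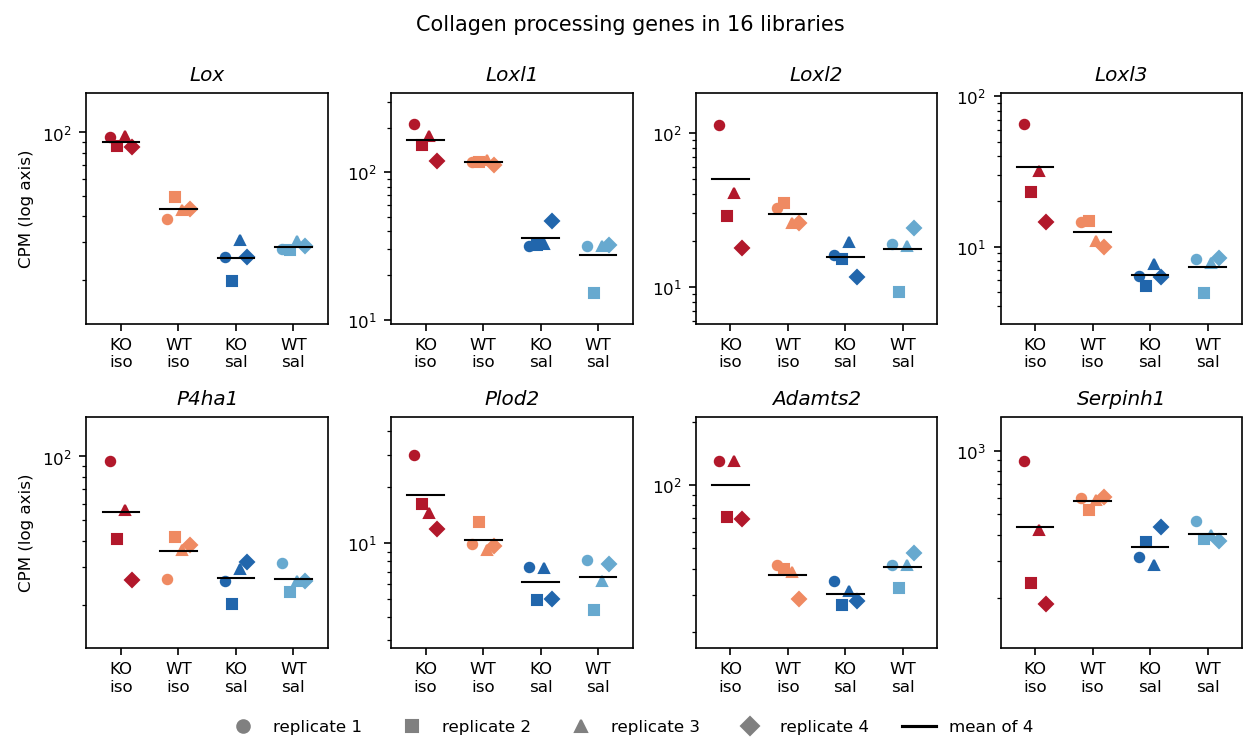
CPM on a log axis in each of the 16 libraries for 4 lysyl oxidase family genes, the hydroxylase genes P4ha1 and Plod2, the proteinase gene Adamts2 and the chaperone gene Serpinh1; symbols mark the replicate number and the line is the mean of 4. Lox lies highest in the 4 KO isoproterenol libraries, Loxl1 lies high in all 8 isoproterenol libraries, and Serpinh1 in KO isoproterenol spreads on both sides of the KO saline libraries.

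The 5 measured hydroxylase genes also rose in KO. P4ha1, a catalytic subunit of prolyl 4-hydroxylase, had 95.4, 40.9, 56.1 and 26.1 CPM in KO isoproterenol, against 25.9, 20.1, 29.5 and 31.8 CPM in KO saline. WT tissue held 26.6, 41.9, 36.2 and 38.3 CPM with isoproterenol, against 31.4, 23, 25.9 and 25.8 CPM with saline. KO isoproterenol replicate 4 lay within the saline range, and the log2 fold change in KO was 0.89 (limma adjusted p = 0.0203), 0.57 and not called without replicate 1 (limma adjusted p = 0.0558). Plod2, the lysyl hydroxylase that acts on the chain ends used for crosslinks, had 29.7, 16.3, 14.6 and 11.9 CPM in KO isoproterenol, against 7.4, 4.95, 7.37 and 5.0 CPM in KO saline. WT values of Plod2 were 9.92, 12.9, 9.14 and 9.7 CPM with isoproterenol, against 8.07, 4.38, 6.28 and 7.68 CPM with saline. Isoproterenol libraries lay above saline in both genotypes (log2 fold change 1.49, limma adjusted p = 0.00044 in KO; 0.68, limma adjusted p = 0.099 in WT, not called). The second prolyl subunit P4ha2 (KO 0.71, limma adjusted p = 0.0191) and the lysyl hydroxylases Plod1 (KO 0.45, limma adjusted p = 0.039) and Plod3 (KO 0.66, limma adjusted p = 0.0204) were called in KO. Each of these 3 calls was lost without KO isoproterenol replicate 1, with log2 fold changes of 0.48, 0.39 and 0.43. P4ha1, Plod1 and Plod3 were also lost without KO isoproterenol replicate 3. Leaving out KO saline libraries cost calls: replicate 1 for P4ha2 and Plod3, replicate 2 for P4ha1, Plod1 and Plod3, and replicate 4 for Plod1. In WT, P4ha1, P4ha2, Plod1 and Plod3 were not called (log2 fold changes 0.42, 0.46, 0.19 and -0.27).

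Serpinh1, which encodes the collagen chaperone HSP47, was the 1 processing gene that was not called in KO. It had 899, 237, 422 and 187 CPM in KO isoproterenol, against 312, 369.8, 287 and 433 CPM in KO saline. Its WT levels were 597, 525, 583 and 603 CPM with isoproterenol, against 465, 380.1, 399 and 374 CPM with saline. KO isoproterenol replicate 1 was the highest library and replicates 2 and 4 the lowest of the 16. The log2 fold change was 0.06 in KO (SE 0.35, limma adjusted p = 0.907; -0.38 without replicate 1) and 0.52 in WT (SE 0.35, limma adjusted p = 0.347), where the groups did not overlap. These SEs are equal because the main fit shares the spread of a gene over both genotypes. With the WT libraries alone the WT difference was called (0.52, limma adjusted p = 0.00425). Without KO isoproterenol replicate 1, Serpinh1 was called lower in KO isoproterenol than in WT isoproterenol (log2 fold change -1.12, limma adjusted p = 0.00115).

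The trimming enzymes Adamts2 and Bmp1 rose in KO and were not called in WT, and the difference between the responses was called for both. Adamts2, the proteinase that removes the amino-terminal propeptide, had 131, 70.9, 129.9 and 69.1 CPM in KO isoproterenol, against 35.2, 27.1, 31.5 and 28.3 CPM in KO saline. WT values were 41.9, 40.1, 38.7 and 28.7 CPM with isoproterenol, against 41.7, 32.6, 41.9 and 47.5 CPM with saline. All 4 KO isoproterenol libraries exceeded the other 12 (log2 fold change 1.65 in KO, SE 0.21, limma adjusted p = 2.78e-05; -0.13 in WT, SE 0.21, limma adjusted p = 0.721), and the responses differed by 1.79 (SE 0.30, limma adjusted p = 0.00173). Bmp1, which removes the carboxy-terminal propeptide, ranged over 70.9 to 178 CPM in KO isoproterenol, against 34.5 to 42.9 CPM in KO saline, and over 39.8 to 59.5 CPM in WT isoproterenol, against 38.9 to 60.6 CPM in WT saline. Its log2 fold change was 1.56 in KO (limma adjusted p = 9.86e-05) and 0.02 in WT (limma adjusted p = 0.961), a difference of 1.53 (SE 0.33, limma adjusted p = 0.00572). Pcolce, the enhancer of that cleavage, rose in KO (log2 fold change 1.01, limma adjusted p = 0.0129) and had a log2 fold change of 0.87 in WT (limma adjusted p = 0.0637), where it was not called although the groups did not overlap. With the WT libraries alone it was called higher (limma adjusted p = 0.00111).

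Under saline none of the 46 genes was called between genotypes (limma, 0 higher and 0 lower, against 0.0717% and 0.0261% of all genes), and 1 had an unadjusted p under 0.05. That gene was Col6a6, at 5.25 ± 1.48 CPM in KO saline and 9.3 ± 1.56 CPM in WT saline (SD, n = 4 each; log2 fold change -0.85, limma adjusted p = 0.46), with no overlap between the groups. Under isoproterenol 10 genes were higher in KO than in WT and 5 lower, against 21.6% and 23.1% of all genes. With library totals in place of the authors' scaling, which shifts the median of all genes by 0.26, the split was 16 higher and 2 lower, against 32.8% and 16.5% of all genes. This comparison uses the isoproterenol libraries again, so its values are not independent of the responses above. Of the 10, Adamts2, Bmp1, Lox, Loxl3, Loxl4, Plod2 and Plod3 are processing genes and Col5a3, Col6a1 and Col9a3 are collagens. Lox averaged 90.5 ± 5.72 CPM in KO isoproterenol and 43.5 ± 4.21 CPM in WT isoproterenol (SD, n = 4 each; log2 fold change 1.06, limma adjusted p = 2.33e-05). Adamts2 averaged 100.1 ± 34.8 CPM in KO isoproterenol and 37.4 ± 5.94 CPM in WT isoproterenol (log2 fold change 1.37, limma adjusted p = 0.00019), and Col5a3 averaged 409.7 ± 55.6 CPM in KO isoproterenol and 133 ± 39.1 CPM in WT isoproterenol (log2 fold change 1.66, limma adjusted p = 8.82e-05). The largest difference among the 10 was that of Col9a3 (log2 fold change 2.13, limma adjusted p = 0.000745). Lower in KO were Col14a1 (log2 fold change -1.66, limma adjusted p = 0.0376), Col6a6 (-1.12, limma adjusted p = 0.00335), Col4a5 (-0.97, limma adjusted p = 0.00414), Col13a1 (-0.81, limma adjusted p = 0.0314) and Col8a1 (-0.71, limma adjusted p = 0.0484). Without KO isoproterenol replicate 1, Col6a1 (log2 fold change 0.67), Plod2 (0.45) and Loxl4 (0.91) were no longer called. Col14a1, Col13a1 and Col8a1 were no longer called when other isoproterenol libraries were left out or with library totals.

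In the direct test of the responses, 7 of the 46 genes had a higher response in KO than in WT and 1 a lower one, against 10.9% and 13.8% of all genes. They were Adamts2, Bmp1, Col5a3, Col9a3, Lox, Loxl3 and Plod3, and Col10a1 was the lower one. The first 5 were called under every alternative fit. Loxl3 (1.40, limma adjusted p = 0.0459), Plod3 (0.93, limma adjusted p = 0.0385) and Col10a1 (-3.36, limma adjusted p = 0.0331) were called in the main setting and not in many others, among them the fit with the replicate number as a block.

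**Figure D5:**
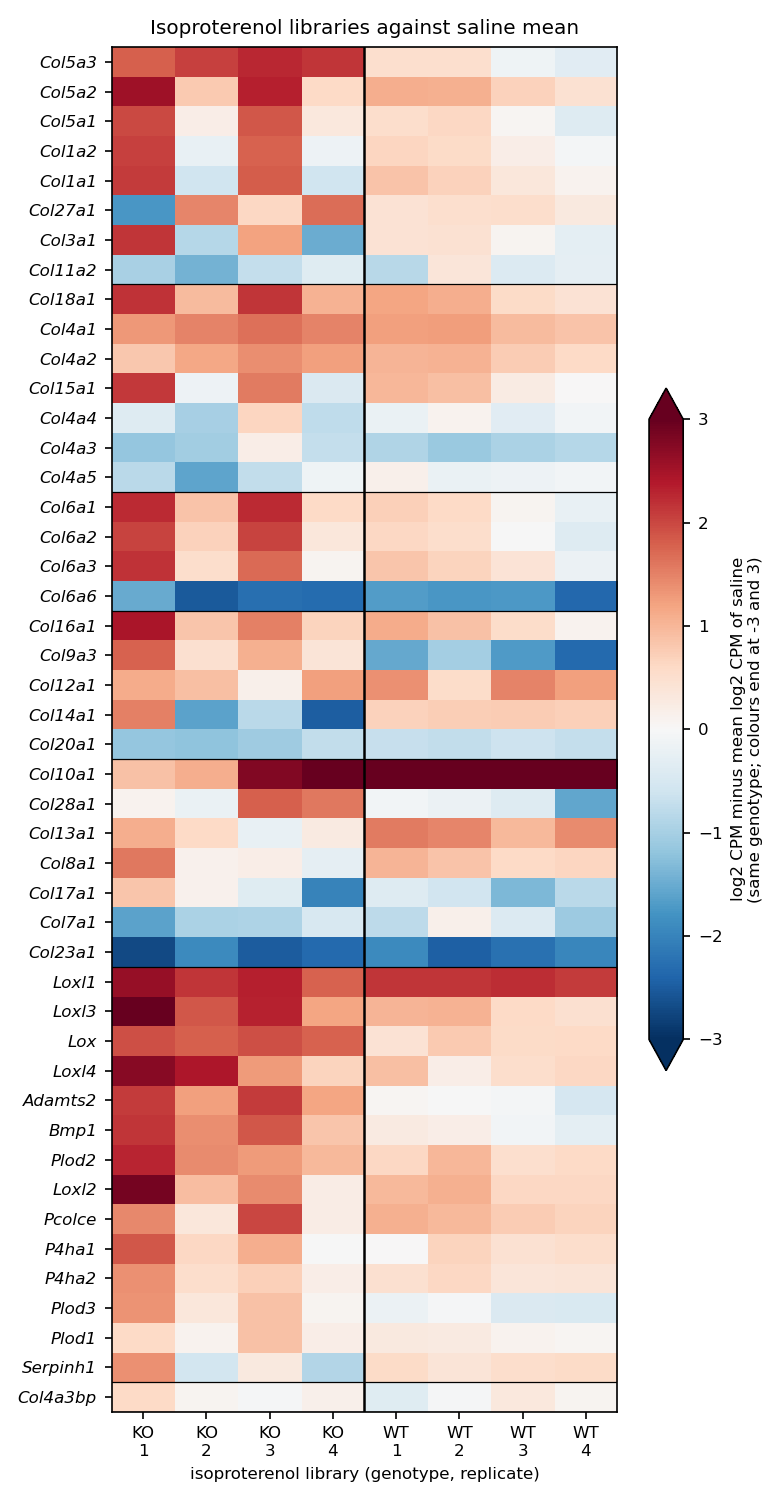
Each isoproterenol library (columns) minus the mean log2 CPM of the saline group of its genotype, for the 46 genes (rows, by class); colours end at -3 and 3. In KO, replicates 1 and 3 are red for Col1a1, Col1a2, Col3a1, Col5a1 and Col15a1 where replicates 2 and 4 are pale or blue, while Col4a1, Col4a2, Col5a3, Lox and Loxl1 are red in all 4.

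Marker levels of other cell types also differed among KO isoproterenol libraries, some in the order of the fibrillar collagens and some not. The summed level of Col1a1, Col1a2 and Col3a1 ran from 689.3 to 5532 CPM in KO isoproterenol and 1507 to 2482 CPM in WT isoproterenol, against 1125 to 1507 CPM in KO saline and 881.4 to 2250 CPM in WT saline. All 10 macrophage markers had reads in every library, and their sum in KO isoproterenol replicates 1 to 4 was 8017, 2239, 5022 and 1073 CPM, against 356 to 652 CPM in KO saline. It was highest in replicates 1 and 3, which also had the most Col1a1. In WT the macrophage sum was 625 to 1109 CPM with isoproterenol, against 262 to 629 CPM with saline. The 10 fibroblast and preadipocyte markers summed to 2979, 2335, 5008 and 3064 CPM in KO isoproterenol, against 1891 to 2651 CPM in KO saline, highest in replicate 3. In WT the fibroblast sum was lower with isoproterenol without overlap, at 1230.0 to 1797 CPM, against 2292 to 3178 CPM with saline. The 10 markers did not fall as a list in WT, with a median log2 fold change of 0.06. Ly6a was called higher and Gsn lower there (limma; 7.60% and 8.98% of all genes). In KO 4 of the 10 were called higher and 0 lower (limma; 23.8% and 24.8% of all genes), with a median of 0.25. The 8 myofibroblast and smooth muscle markers summed to 435, 338, 530.3 and 337 CPM in KO isoproterenol, higher in replicates 1 and 3 than in 2 and 4, against 243 to 347 CPM in KO saline. Of these 8, the genes Acta2, Actg2, Lmod1 and Myl9 rose in KO and Acta2, Actg2 and Myl9 in WT (limma; 23.8% and 7.60% of all genes). The WT sum was 449 to 635 CPM with isoproterenol, against 301 to 534 CPM with saline. Pericyte and Schwann cell sums were also higher in replicates 1 and 3, at 1202, 934, 1093 and 949 CPM and 270.4, 258, 308 and 254 CPM in KO isoproterenol, against 1049 to 1354 CPM and 267 to 350.1 CPM in KO saline. Adipocyte markers summed to 4143, 13316, 21001 and 39397 CPM in KO isoproterenol replicates 1 to 4 and brown adipocyte markers to 129.8, 1529, 2735 and 6232 CPM, both lowest in replicate 1 and highest in replicate 4. Endothelial markers, with 1736 to 1955 CPM in KO isoproterenol, against 1283 to 1812 CPM in KO saline, spread far less. Skeletal muscle markers ranged from 7.99 to 9307 CPM across the 16 libraries and varied within every group. KO replicates 1 to 4 held 14.6, 748, 612 and 82.3 CPM with isoproterenol and 18.1, 813, 831 and 11.1 CPM with saline. WT replicates held 197, 7.99, 1092 and 2957 CPM with isoproterenol and 335, 20.6, 1443 and 9307 CPM with saline. Within each genotype, libraries of equal number were thus high or low together, and the cause was not tested. The part of these markers in the collagen results was not tested.

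Related genes outside the 46 were counted from 6 lists, beside 23.8% higher and 24.8% lower of all genes in KO and 7.60% and 8.98% in WT. Of 23 measured genes for other steps of procollagen modification, folding and export, 12 rose and 4 fell in KO, and 0 rose and 3 fell in WT. The KO increases were led by Fkbp10 (log2 fold change 1.92, limma adjusted p = 0.000213), a collagen folding factor, and P4hb (1.72, limma adjusted p = 5.74e-05), the partner subunit of the prolyl hydroxylases. Tmem38b, an ion channel of the endoplasmic reticulum, fell in both KO (-0.79, limma adjusted p = 0.00177) and WT (-1.06, limma adjusted p = 0.000983). Collagen-binding matrix proteins had 9 of 19 higher and 0 lower in KO and 6 higher and 0 lower in WT. The proteoglycan Vcan had log2 fold changes of 4.04 in KO and 1.74 in WT (limma adjusted p = 3.45e-05 and 0.0374), and elastin, Eln, 1.89 in WT (limma adjusted p = 0.000188). Eln was called higher in KO as well. The matricellular genes Thbs1 (3.78, limma adjusted p = 0.000192) and Thbs2 (2.94, limma adjusted p = 1.65e-07) rose in KO.

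Non-collagen basement membrane genes did not follow Col4a1 and Col4a2 as a list, with 4 of 17 higher and 6 lower in KO and 1 higher and 4 lower in WT. The linker protein gene Nid1 rose in KO (1.13, limma adjusted p = 0.000402). Smoc2 fell in both KO (-0.78, limma adjusted p = 0.0116) and WT (-1.73, limma adjusted p = 0.000232), as did Agrn, the proteoglycan agrin (-0.75 and -0.54, limma adjusted p = 0.00236 and 0.0413). In the list for collagen breakdown and uptake, 11 of 15 rose and 0 fell in KO, and 3 rose and 1 fell in WT. It includes both collagenases and their inhibitors: the neutrophil collagenase Mmp8 had a log2 fold change of 7.40 (limma adjusted p = 1.22e-06) and the inhibitor Timp1 5.65 (limma adjusted p = 1.31e-06) in KO. In WT, Timp1 rose (2.88, limma adjusted p = 0.00175), as did Mrc1, a macrophage receptor that takes up collagen (1.42, limma adjusted p = 0.0286), and Timp3 fell (-1.22, limma adjusted p = 0.0216). Mrc1 was called higher in KO as well.

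Of 8 measured collagen receptor genes, 3 rose and 1 fell in KO and none was called in WT. The increases were Lair1, an inhibitory receptor of immune cells (3.68, limma adjusted p = 7.34e-05), the collagen-binding kinase Ddr2 (0.91, limma adjusted p = 0.00291) and the integrin gene Itgb1 (0.54, limma adjusted p = 0.00693), and Itga1, the alpha chain of a collagen-binding integrin, fell (-0.73, limma adjusted p = 0.000332). For TGF-beta ligands, receptors and targets, 9 of 16 rose and 1 fell in KO, and 1 rose and 2 fell in WT. Tgfbi (2.44, limma adjusted p = 0.00103) and Ccn2 (1.54, limma adjusted p = 0.0193), targets of this growth factor in many cells, rose in KO. Ltbp2, a matrix protein of the latent TGF-beta binding family, fell in KO (-2.05, limma adjusted p = 4.13e-06) and in WT (-1.15, limma adjusted p = 0.00233).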

How the data were processed

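RNA of interscapular brown adipose tissue was measured in 16 libraries, 4 per group. The authors deposited log2 values per gene and library, 15350 genes each. The submitters' processing notes name STAR, limma and the mouse build mm39. Versions, the read counter and the strand setting were not given in the sources used here. Every log2 value the authors deposited was a whole number of reads plus 0.5, in CPM of a scaled library, for 100% of values (within 1e-06 of a whole number). Genotype and treatment labels gave the groups, and titles gave the replicate numbers. In 3 KO saline files the header carries another replicate number, and the titles were used. No deposited column of per-sample values was left unused.

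A linear model with 4 group means was fitted to the log2 values of all genes in limma 3.58.1 (R 4.3.3, statmod 1.5.0), with 12 residual degrees of freedom and trended, robust empirical Bayes moderation. P-values were adjusted by the Benjamini-Hochberg method over 15350 genes, with an adjusted p under 0.05 as the threshold for a call. The fitting step was tested on simulated data. Alternatives were library totals as scale, a minimum mean of 1 CPM, log2(CPM + 1), fits of the groups compared alone, no trend, library weights, voom weights on recovered reads, the replicate number as a block, and each library left out. Replicate numbers were checked for pairing by correlating deviations from the group means. For WT isoproterenol and WT saline these were 0.210, 0.423, 0.234 and 0.535 for numbers 1 to 4. The highest correlations with another number were 0.176, 0.371, 0.345 and 0.204, so number 3 correlated more with another number than with its own. Numbers 1 and 2 correlated only slightly more with their own, and number 4 clearly more. Skeletal muscle marker sums were high or low together in libraries of equal number in both genotypes. The labels state no pairing, so a pairing by number was neither shown nor excluded in either genotype. For KO isoproterenol and KO saline the correlations of equal numbers were 0.0405, 0.149, 0.239 and 0.0329. The main fit has no block. Symbols and transcript lengths came from GENCODE M21, and start regions from RefSeq (GRCm38.p6), both another build than the reads. Where genes overlap, as Col4a1 and Col4a2 do at their starts, the sharing of reads depends on the unknown counter.

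The members and gene lists were chosen with earlier results of these data known. Every member is named by its role. Values in each library are given for 14 representatives chosen by role and for the 3 called members with the largest change in each direction of each 2-group comparison. Col5a2, Col27a1 and Col11a2 were added after their values were seen. From each pathway list, named genes come from the 3 called with the largest change in each direction. Some of these are not reported here. Depth limits genes of a few reads: 3 reads were worth 0.143 to 0.345 CPM. Intervals cover counting error only.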

Additional observations from a re-analysis of the deposited data

Results flagged for a closer look

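In 6 of 104 gene and group combinations tested, a single library stood apart from the other 3 of its group by Dixon's criterion, where chance gives about 1 in 20. Col20a1 was high in KO saline replicate 3 at 10.9 CPM. Loxl1 was high in KO saline replicate 4 at 46.7 CPM. Col6a6 was low in WT isoproterenol replicate 4 at 1.79 CPM. WT saline replicate 2 was low for Col5a1 at 57.2 CPM, Loxl1 at 15.0 CPM and Loxl3 at 4.92 CPM.

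The response to isoproterenol differed between KO and WT, by a test of the difference in limma at an adjusted p under 0.05, for 8 genes. The KO response minus the WT response on the log2 scale was 2.56 for Col9a3, 1.92 for Col5a3, 1.79 for Adamts2, 1.53 for Bmp1, 1.40 for Loxl3, 1.25 for Lox, 0.93 for Plod3 and -3.36 for Col10a1.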

How the results depend on the processing

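All 7 genes higher and 4 lower in WT after isoproterenol were called under every alternative, as were 15 of 25 higher and 3 of 6 lower in KO. Fitting the groups compared alone gave 16 higher in KO, 18 higher in WT, and 6 higher and 2 lower between KO and WT under isoproterenol, where 16.3%, 16.3% and 14.2% of all genes were called higher. Library weights gave 18 higher in WT (17.4% of all genes), 1 lower between genotypes under saline (2.68%), 20 higher and 8 lower under isoproterenol (27.1% and 27.4%), and 18 higher and 6 lower in the difference of responses (20.4% and 20.7%). Library totals, which shift the median of all genes by 0.18 in KO, -0.11 in WT and 0.29 in the difference of responses, gave 16 higher and 2 lower between KO and WT under isoproterenol (32.8% and 16.5% of all genes) and 4 lower in KO (19.1%). The lower count in the difference of responses was 0 with log2(CPM + 1), with voom weights and with the replicate block. With 1 library left out at a time, the counts ran from 20 to 28 higher and 4 to 8 lower in KO, 7 to 8 higher and 4 to 5 lower in WT, 0 to 0 in both directions between genotypes under saline (limma; 1 gene with an unadjusted p under 0.05 in the full fit), 7 to 14 higher and 2 to 6 lower under isoproterenol, and 5 to 10 higher and 0 to 4 lower in the difference of responses. Col3a1, never called, ran from -0.38 to 0.83 in KO and -0.15 to 0.32 in WT with 1 library left out, changing sign in KO without KO isoproterenol replicate 1 (-0.38) or 3 (-0.07) and in WT without WT saline replicate 2 (-0.15). Serpinh1, also not called in KO, ran from -0.38 to 0.37 in KO and changed sign without KO isoproterenol replicate 1 (-0.38) or 3 (-0.02) or KO saline replicate 3 (-0.03). The cause of these changes was not tested.

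With the replicate number as a block the KO counts were 24 higher and 6 lower, the WT counts 7 and 4, and the difference of responses 5 and 0, with P4ha2 lost in KO and Loxl3, Plod3 and Col10a1 in the difference. Between genotypes under isoproterenol the block gave 10 higher and 5 lower, with Loxl4 lost and Col6a2 gained among the higher. The block changed no WT call.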
